A study of Mus musculus with 24 samples.

Results

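RNA levels of 40 cell cycle genes were compared in the ileum and the liver of mice that had lost most of the small bowel: 19 genes of DNA replication (S phase) and 21 genes of mitosis. The genes were taken by symbol from a named list that was chosen with earlier results of these data known. All 40 were found among the 40481 genes of each tissue's table. All 40 also passed the filter on low values in both tissues, at which 18656 genes remained in the ileum and 17520 in the liver.

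The mice were C57BL/6, and every group had undergone resection of 75% of the small bowel, so no unoperated group was compared. Floxed mice were Abca1 fl/fl, in which the gene of the cholesterol exporter ABCA1 is flanked by loxP sites. Villin-Cre mice were Abca1 fl/fl and also carried Cre under the Villin promoter, which is active in the epithelium of the intestine and not in its muscle or immune cells. Mice of both genotypes were given vehicle (0.5% carboxymethyl cellulose) or GW3965, a drug that switches on the liver X receptors (LXR), nuclear receptors that sense oxysterols. Dosing was oral, at 1 mg/kg/day on 2 occasions per week, for the final 5 weeks of the 10 that followed the operation. Each of the 4 groups had 3 libraries from whole ileum and 3 from whole liver, 24 in all, and no age is given in the sources used here.

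A cell commits to division when cyclin D and cyclin E kinases release the E2F transcription factors, which switch on the genes that license replication origins, unwind DNA and make nucleotides. Later the FOXM1, B-MYB and DREAM/MuvB factors switch on the genes of the spindle, the chromosome passengers and the anaphase-promoting complex. In the small intestine these genes are mainly expressed by the dividing cells of the crypts, which feed the villi, and crypts enlarge after bowel resection. In the adult liver most hepatocytes rest outside the cycle, many are polyploid, and dividing cells can also be Kupffer cells, duct cells or endothelium.

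Levels are given as CPM, the reads of a gene per 1000000 reads assigned to genes in that library. Assigned reads numbered 16.96 to 24.2 M in each ileal library and 26.4 to 32.3 M in each liver library. Changes are log2 differences ± SE on the log2(CPM + 0.5) scale, on which changes of low genes come out too small. Tests are limma's, with Benjamini-Hochberg adjustment over all genes tested in that tissue. A gene is said to have risen or fallen where its adjusted p was under 0.05. Since the 4 comparisons of a tissue share their groups, they are not independent of each other.

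Abca1, the targeted gene, was the check of the labels. Abca1 stood at 59.9, 57.4 and 54.2 CPM under vehicle and at 428, 438 and 251 CPM under GW3965 in floxed mice. With Villin-Cre, Abca1 stood at 25.7, 30.6 and 28.5 CPM under vehicle and at 53.7, 53.7 and 54.0 CPM under GW3965. Its Villin-Cre libraries in the ileum lay below every floxed library, those under GW3965 by a narrow margin. In the liver Abca1 stood at 327 to 342 CPM and 464 to 479 CPM in floxed mice under vehicle and GW3965, and at 225 CPM in each vehicle library and 377 to 382 CPM under GW3965 in Villin-Cre mice. Within each genotype and tissue every library under GW3965 lay above those under vehicle. Reads over the part that Cre removes were not counted apart from the rest of the gene, and whole ileum also holds cells in which this Cre does not act.

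A library stood apart from its own group in each tissue. Both came from floxed mice under GW3965 and were replicate 3 in the ileum and replicate 1 in the liver. Both mates of a read pair appear to have been counted, which by itself raises the variance of read numbers above Poisson. The variance between the other libraries of a group was 2.63 to 4.11 times the Poisson variance of their reads over 10 ileal pairs and 2.58 to 3.39 times over 10 liver pairs. Pairs within a group that included a library apart reached 8.06 to 8.44 times in the ileum and 10.1 to 10.2 times in the liver, beside 11.35 to 58.5 and 7.26 to 50.6 times between groups. The ileal library apart was below both others of its group in 18 of 19 S phase members and 14 of 21 mitosis members. The liver library apart was below both others in 17 of 19 S phase members and 13 of 21 mitosis members. The labels do not say which libraries came from separate animals, and p-values here rest on the spread among these libraries alone, which could be technical. With close libraries (under 4 times the Poisson variance, directly or through a library in between) averaged into 1 unit, the spread rests on 1 pair of units per tissue. Counts from that setting are given without the share of all genes, so they cannot show whether members passed more often than other genes. The members that passed the test were then 1, 14, 0 and 23 in the ileum (GW3965 in floxed and in Villin-Cre mice, Villin-Cre under vehicle and under GW3965), and 0, 0, 3 and 1 in the liver. At an unadjusted p under 0.05, limma counted 28, 28, 36 and 35 members in the ileum and 24, 0, 15 and 8 in the liver in that setting.

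Promoter sequence was searched for letters that members of a phase may share. For 32 of the 40 members RefSeq gives the 250 bases before and 50 bases after the annotated start in GRCm38.p6 (16 in each phase). Ccne2, Mcm4, Gins2, Ccna2, Aurkb, Kif20a, Foxm1 and Tpx2 were not matched. Letters of the E2F element (TTTCCCGC or TTTGGCGC) were found in 4 of 16 S phase promoters (25.0%) and in 0 of 16 mitosis promoters, beside 1.51% of all 27025 genes in the table. Letters of the CHR element, at which the MuvB complexes bind (TTTGAA or TTCGAA), were found in 8 of 16 mitosis promoters, 3 of 16 S phase promoters (18.8%) and 19.6% of all genes. CCAAT, the letters that NF-Y binds, was in 14 of 16 mitosis promoters (87.5%), 10 of 16 S phase promoters (62.5%) and 37.5% of all genes. Both strands of the 250 bases before the start were searched, and the 50 bases after it were not. The members' matches to different motifs did not overlap. A match is a run of letters and not a bound site.

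The promoters below are the 250 bases before the RefSeq start (GRCm38.p6), written 5′ to 3′ on the gene's strand, for the 2 members of each phase with the highest mean ileal CPM whose window holds their phase's letters and touches no annotated exon (the window of Mcm7 touches one). In Mcm6 and Mcm5, subunits of the replicative helicase, capitals mark the E2F letters (2 places and 1 place). In Mki67, which coats mitotic chromosomes, and Top2a, the topoisomerase that untangles them, capitals mark CHR and CCAAT letters (2 and 3 places in Mki67, 4 and 6 in Top2a).
Mcm6 (chr1:128359706-128359955, strand minus): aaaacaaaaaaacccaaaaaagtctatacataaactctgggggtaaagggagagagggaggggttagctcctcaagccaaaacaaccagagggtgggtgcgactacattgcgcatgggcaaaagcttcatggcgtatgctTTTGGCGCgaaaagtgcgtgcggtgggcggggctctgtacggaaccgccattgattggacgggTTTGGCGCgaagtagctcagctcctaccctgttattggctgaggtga
Mcm5 (chr8:75109259-75109508, strand plus): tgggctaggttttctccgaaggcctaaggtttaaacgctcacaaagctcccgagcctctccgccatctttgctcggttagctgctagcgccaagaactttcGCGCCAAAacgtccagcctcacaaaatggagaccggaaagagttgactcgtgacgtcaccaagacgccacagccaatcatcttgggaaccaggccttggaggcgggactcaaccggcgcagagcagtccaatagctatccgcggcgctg
Mki67 (chr7:135716380-135716629, strand minus): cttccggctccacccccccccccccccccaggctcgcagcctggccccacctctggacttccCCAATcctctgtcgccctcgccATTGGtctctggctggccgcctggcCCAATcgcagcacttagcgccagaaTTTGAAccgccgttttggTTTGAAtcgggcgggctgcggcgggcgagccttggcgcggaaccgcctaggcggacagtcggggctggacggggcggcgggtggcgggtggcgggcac
Top2a (chr11:99024190-99024439, strand minus): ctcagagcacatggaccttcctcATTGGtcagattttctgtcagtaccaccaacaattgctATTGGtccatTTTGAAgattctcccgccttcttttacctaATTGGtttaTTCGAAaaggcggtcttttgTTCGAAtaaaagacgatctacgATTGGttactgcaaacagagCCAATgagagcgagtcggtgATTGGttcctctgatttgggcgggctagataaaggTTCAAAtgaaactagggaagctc

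In the ileum both phases were highest in floxed mice given vehicle and lowest in Villin-Cre mice given GW3965, and the summed level of the mitosis genes spanned a wider range than that of the S phase genes. The 21 mitosis members summed to 702 ± 32.7 CPM in floxed mice given vehicle and 300.4 ± 33.5 CPM in floxed mice given GW3965 (mean ± SD, n = 3). In Villin-Cre mice they summed to 212 ± 11.4 CPM with vehicle and 66.1 ± 2.92 CPM with GW3965. The 19 S phase members summed to 351 ± 9.10, 229 ± 40.6, 159 ± 6.38 and 115 ± 5.74 CPM in the same order. The mitosis sum was therefore 2.00 times the S phase sum in floxed mice given vehicle, 1.32 and 1.34 times in the groups with only GW3965 or only Villin-Cre, and 0.575 times with both. These sums lean on Mki67 and Top2a, the most abundant members. In whole tissue, fewer dividing cells and less RNA per dividing cell cannot be told apart.

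**Figure D1:**
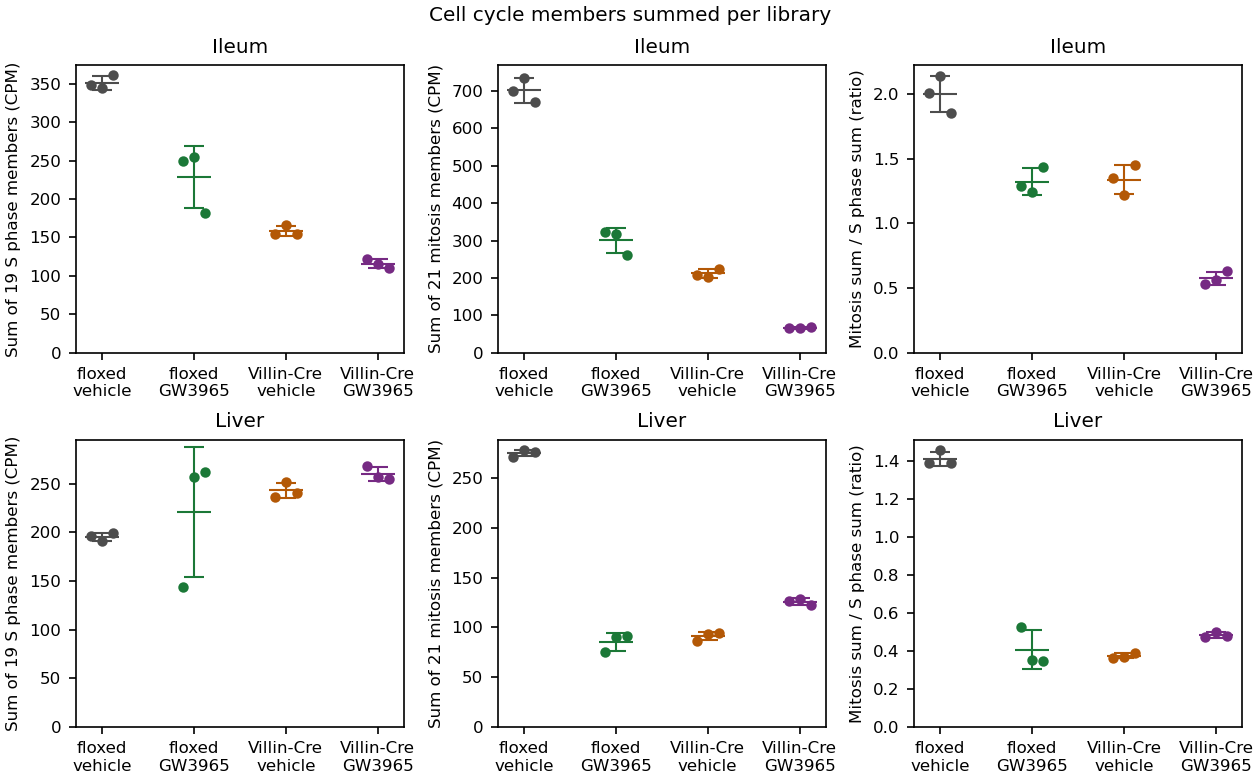
Summed level of the S phase and mitosis members (CPM) in each library of the 4 groups, ileum and liver, with group means and SD over 3 libraries. In the ileum the mitosis sum went from 702 CPM in floxed mice given vehicle to 66.1 CPM in Villin-Cre mice given GW3965, while in the liver it was highest in floxed mice given vehicle (275 CPM) and the S phase sum was lowest there (195 CPM).

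Mki67, the antigen Ki-67 of cycling cells, was the most abundant ileal member. Its gene (ENSMUSG00000031004) lies on the minus strand of chromosome 7 at 135689784 to 135716361 (GRCm38, GENCODE M21). Mki67 stood at 190.1, 206 and 176 CPM under vehicle and at 93.7, 94.2 and 64.6 CPM under GW3965 in floxed mice. With Villin-Cre, Mki67 stood at 52.2, 51.9 and 55.7 CPM under vehicle and at 14.7, 14.6 and 14.9 CPM under GW3965. The 4 groups did not overlap, in the order floxed vehicle, floxed GW3965, Villin-Cre vehicle, Villin-Cre GW3965. Top2a, needed to separate sister chromatids, followed the same order. The gene (ENSMUSG00000020914) lies on the minus strand of chromosome 11 at 98992943 to 99024189. Top2a stood at 111, 123 and 110.4 CPM under vehicle and at 46.3, 47.2 and 34.9 CPM under GW3965 in floxed mice. With Villin-Cre, Top2a stood at 30.0, 29.1 and 31.1 CPM under vehicle and at 6.75, 7.02 and 7.77 CPM under GW3965. All 3 libraries of each group again lay apart from those of every other group. Plk1 encodes the kinase of mitotic entry and cytokinesis. Plk1 stood at 40.9, 39.6 and 43.5 CPM under vehicle and at 31.2, 28.1 and 32.4 CPM under GW3965 in floxed mice. With Villin-Cre, Plk1 stood at 21.1, 19.7 and 25.4 CPM under vehicle and at 13.7, 12.2 and 15.2 CPM under GW3965. Its groups kept the same order without overlap, over a smaller range than Mki67 or Top2a. Its level per kilobase of exon was the highest of all members in the ileum, at 12.2 CPM per kb over the 12 libraries, against 8.52 for Mki67 and 5.41 for Top2a.

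The S phase members with the highest mean CPM in the ileum were Tk1, Mcm6 and Mcm7. Mcm6 stood at 34.8, 34.5 and 36.8 CPM under vehicle and at 21.1, 21.5 and 15.5 CPM under GW3965 in floxed mice. With Villin-Cre, Mcm6 stood at 12.1, 12.2 and 10.5 CPM under vehicle and at 12.0, 8.91 and 10.6 CPM under GW3965. The Villin-Cre groups overlapped each other and lay below both floxed groups. Mcm7 encodes another subunit of the same helicase ring. Mcm7 stood at 25.1, 27.7 and 30.4 CPM under vehicle and at 22.8, 24.5 and 13.6 CPM under GW3965 in floxed mice. With Villin-Cre, Mcm7 stood at 13.9, 16.1 and 12.9 CPM under vehicle and at 8.22, 8.29 and 6.82 CPM under GW3965. Floxed vehicle was the highest group and Villin-Cre GW3965 the lowest, and the library apart among floxed GW3965 libraries lay within the range of Villin-Cre vehicle. Tk1 encodes thymidine kinase, which salvages thymidine for DNA synthesis. Tk1 stood at 32.2, 31.9 and 33.1 CPM under vehicle and at 23.8, 25.8 and 21.05 CPM under GW3965 in floxed mice. With Villin-Cre, Tk1 stood at 14.1, 14.8 and 17.0 CPM under vehicle and at 14.8, 14.4 and 13.3 CPM under GW3965. Its Villin-Cre groups overlapped, and both lay below every floxed library.

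**Figure D2:**
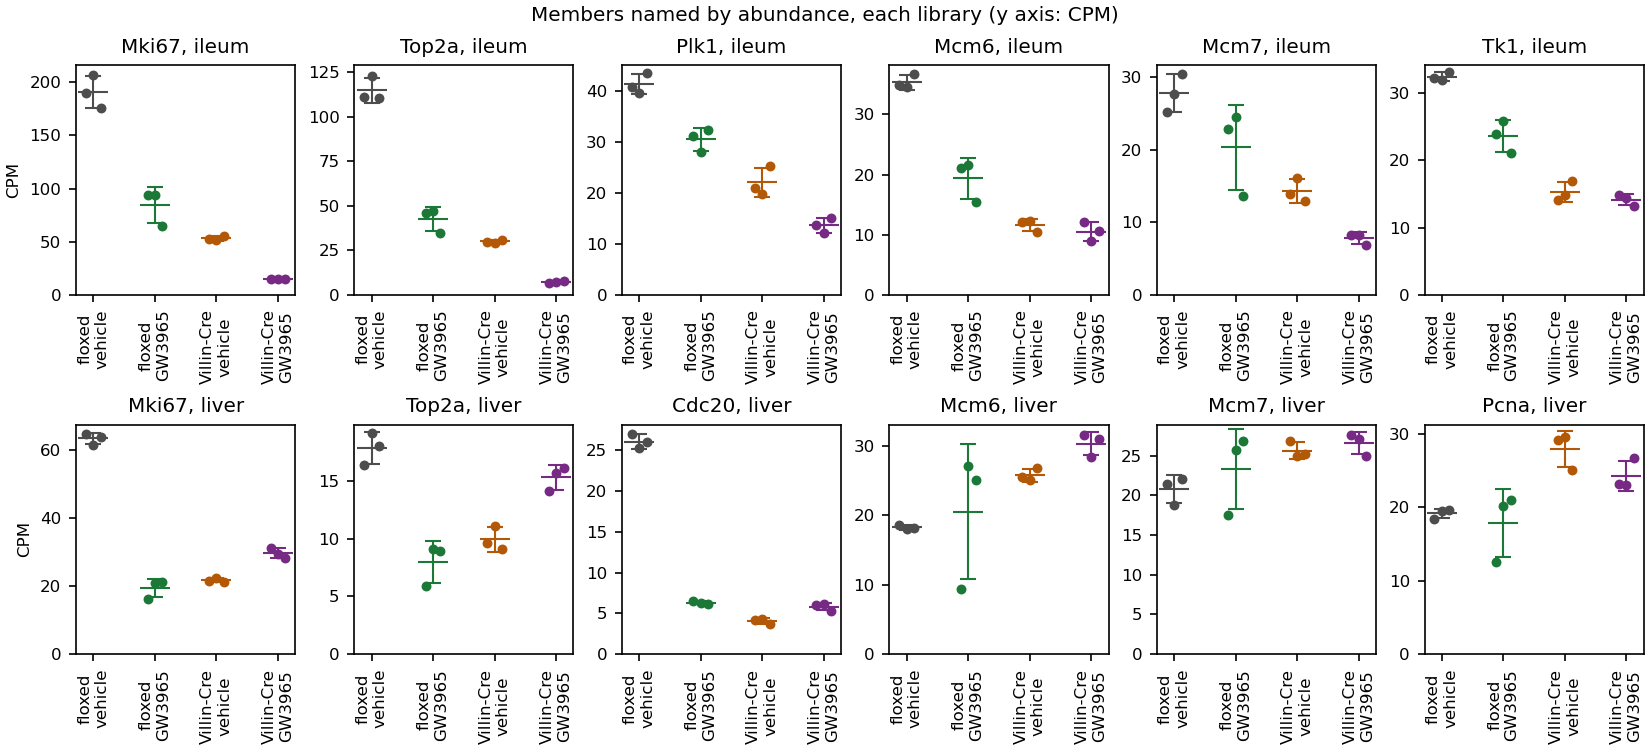
Level (CPM, axes from 0) of the 6 most abundant members per tissue by the naming rule, with each library as a point and the group mean ± SD. Ileal Mki67 lay at 14.7, 14.6 and 14.9 CPM in Villin-Cre mice given GW3965, below all other libraries, and liver Mcm6 spread from 9.37 to 27.1 CPM within floxed mice given GW3965.

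With GW3965 the mitosis genes of the ileum fell in floxed mice. All 21 mitosis members fell, with a median log2 change of -1.25, and 13 of 19 S phase members fell, with a median over all 19 of -0.69. Over all genes tested, 35.6% changed (20.9% fell and 14.7% rose), with a median of -0.08. Higher genes made up 41.2% of all calls, or 53.4% with libraries rescaled by the median of gene ratios. Mki67 changed by -1.19 ± 0.11 (adjusted p = 2.3e-07) and Top2a by -1.43 ± 0.10 (adjusted p = 1.2e-08). The cyclins and the kinase that drive mitotic entry stood at -1.70 ± 0.21 (Ccnb2), -1.62 ± 0.19 (Ccnb1), -1.50 ± 0.20 (Cdk1) and -1.36 ± 0.13 (Ccna2), all past the test. Ube2c and Cdc20, which work with the anaphase-promoting complex, fell by 1.57 and 1.26 on the log2 scale. Plk1 fell least, by 0.43 ± 0.10 on the log2 scale (adjusted p = 0.0035).

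The S phase members that fell ran from -1.16 (Rrm2) to -0.45 (Tk1) on the log2 scale. They held the nucleotide enzymes Rrm1 and Rrm2 (ribonucleotide reductase), Tyms (thymidylate synthase) and Tk1, all 6 Mcm helicase subunits, and Cdc45 and Gins2, which complete the active helicase. Uhrf1, which carries DNA methylation through replication, fell by 0.90 on the log2 scale. The 6 that did not pass were the G1/S regulators Ccne1 (-0.66 ± 0.27, adjusted p = 0.063), Ccne2 (0.10) and E2f1 (-0.54 ± 0.22, adjusted p = 0.07), the licensing factors Cdc6 (-0.38) and Cdt1 (0.01), and the sliding clamp Pcna (-0.17). Without the library apart, 12 S phase and 21 mitosis members fell, beside 21.7% of all genes.

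In Villin-Cre mice 20 of 21 mitosis members of the ileum fell with GW3965, and the S phase members split. The mitosis median was -1.64. Of the S phase members, 12 fell and 1 rose, with a median of -0.84 over all 19. Over all genes 52.5% changed (31.1% fell and 21.5% rose), with a median of -0.11. Mki67 changed by -1.82 ± 0.11 (adjusted p = 4.7e-10) and Top2a by -1.99 ± 0.10 (adjusted p = 6.2e-11). Ube2c stood at 5.21 ± 0.733 CPM with vehicle and 0.666 ± 0.122 CPM with GW3965, a log2 change of -2.29 ± 0.16. The S phase members with the largest fall were Mcm5 (-1.88 ± 0.15), Uhrf1 (-1.80 ± 0.19) and E2f1 (-1.52 ± 0.22), the last being the transcription factor of G1/S genes.

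Pcna, the clamp that holds DNA polymerase, rose in this comparison against the direction of the other called members. Pcna stood at 17.9, 21.5 and 21.3 CPM under vehicle and at 19.6, 18.6 and 15.8 CPM under GW3965 in floxed mice. With Villin-Cre, Pcna stood at 12.7, 10.3 and 12.1 CPM under vehicle and at 17.1, 16.3 and 16.8 CPM under GW3965. Every Villin-Cre library with GW3965 lay above every Villin-Cre library with vehicle, a log2 change of 0.50 ± 0.11 (adjusted p = 0.0011). The remaining members that did not pass were Mcm6 (-0.14), Rrm2 (-0.14), Tk1 (-0.10), Cdt1 (0.05), Ccne2 (0.29) and Cdc6 (0.43 ± 0.20, adjusted p = 0.076) among S phase genes. Birc5, which encodes the chromosome passenger survivin, was the only mitosis member that did not pass (-0.02 ± 0.16).

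Under vehicle, 39 of the 40 members were lower in the ileum of Villin-Cre mice than of floxed mice, and 1 was higher. All 21 mitosis members fell (median -1.69), as did 18 of 19 S phase members (median -1.21). Over all genes 40.3% changed (30.7% fell and 9.61% rose), with a median of -0.18. Rescaling by the median of gene ratios moved that median by 0.21 and the share of calls that were higher from 23.8 to 57.9%. After rescaling 17 S phase and 21 mitosis members were lower, beside 14.6% of all genes. Bub1, a kinase of the spindle checkpoint, had the largest change at -2.10 ± 0.26, beside -1.94 ± 0.20 for Cdk1, -1.92 ± 0.16 for Ube2c and -1.92 ± 0.10 for Top2a. Mki67 changed by -1.83 ± 0.11 (adjusted p = 2.6e-09). Of the S phase members, Rrm2 (-1.68 ± 0.17), Mcm6 (-1.57 ± 0.13) and Uhrf1 (-1.57 ± 0.19) changed most, and Pcna (-0.76 ± 0.11), E2f1 (-0.76 ± 0.22) and Cdt1 (-0.78 ± 0.15) least among those that fell.

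The exception was Ccne2, cyclin E2, a partner of the S phase kinase CDK2. Ccne2 stood at 12.3, 10.1 and 12.6 CPM under vehicle and at 10.2, 9.73 and 19.3 CPM under GW3965 in floxed mice. With Villin-Cre, Ccne2 stood at 20.3, 20.5 and 12.9 CPM under vehicle and at 22.7, 21.1 and 20.7 CPM under GW3965. The Villin-Cre vehicle libraries lay above all floxed vehicle libraries, a log2 change of 0.58 ± 0.21 (adjusted p = 0.037). Ccne1, the paralogous cyclin E1, fell by 0.98 ± 0.27 on the log2 scale. Of the exon bases of Ccne2, 17.4% are shared with exons of Ints8 on the other strand. Ints8 stood at 34.7, 31.5, 28.1 and 31.6 CPM in the same order of groups. Its part in the value of Ccne2 was not tested.

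Under GW3965 the mitosis and S phase genes of the ileum were again lower in Villin-Cre mice. There 20 of 21 mitosis members were lower than in floxed mice (median -2.10), and 16 of 19 S phase members were lower and 1 higher (median -1.29). Over all genes 51.9% changed (38.3% fell and 13.6% rose), with a median of -0.24. Higher genes were 26.1% of all calls, or 52.1% after rescaling, which moved the median of all genes by 0.24. After rescaling 15 S phase and 20 mitosis members were lower, beside 23.6% of all genes. Ube2c (-2.65 ± 0.16), Mcm5 (-2.64 ± 0.15), Cenpe, a kinesin of the kinetochore (-2.53 ± 0.15), and Tpx2, which activates Aurora A on the spindle (-2.53 ± 0.16), changed most. Mki67 changed by -2.45 ± 0.11 (adjusted p = 3.6e-11) and Top2a by -2.48 ± 0.10 (adjusted p = 1.5e-11). Ccne2 was higher again, at 0.76 ± 0.21 (adjusted p = 0.0059). Birc5 (-0.34 ± 0.16, adjusted p = 0.08), Pcna (-0.10) and Cdc6 (-0.15) did not pass.

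The log2 effect of GW3965 differed between the genotypes in 16 of the 40 ileal members. The effect was more negative in Villin-Cre mice for 7 mitosis and 4 S phase members and more positive for 1 mitosis and 4 S phase members. Over all genes 33% differed, 18.4% with a more negative and 14.6% with a more positive effect, so the members' share was not far from the background. Mcm5 (-1.19 ± 0.21, adjusted p = 3.7e-04), E2f1 (-0.98 ± 0.32), Tpx2 (-0.92 ± 0.22), Uhrf1 (-0.90 ± 0.27) and Foxm1 (-0.85 ± 0.20), the transcription factor of mitosis genes, had the most negative differences. Mki67 differed by -0.62 ± 0.15 (adjusted p = 0.0051) and Top2a by -0.57 ± 0.14 (adjusted p = 0.0057).

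Birc5 differed in the other direction, by 1.24 ± 0.22 (adjusted p = 3.7e-04). Birc5 stood at 19.3, 20.5 and 18.2 CPM under vehicle and at 7.10, 8.99 and 7.41 CPM under GW3965 in floxed mice. With Villin-Cre, Birc5 stood at 4.68, 7.65 and 6.41 CPM under vehicle and at 5.95, 6.60 and 5.64 CPM under GW3965. Its Villin-Cre groups overlapped each other, and 1 Villin-Cre vehicle library reached into the range of floxed GW3965. Rrm2, the inducible subunit of ribonucleotide reductase, differed by 1.03 ± 0.24 (adjusted p = 0.0035). Rrm2 stood at 16.8, 14.9 and 14.9 CPM under vehicle and at 8.08, 6.96 and 5.23 CPM under GW3965 in floxed mice. With Villin-Cre, Rrm2 stood at 4.06, 5.38 and 4.20 CPM under vehicle and at 4.77, 4.04 and 3.46 CPM under GW3965. Its Villin-Cre groups overlapped each other, and 1 Villin-Cre vehicle library lay above the lowest floxed GW3965 library, the library apart. Pcna (0.67 ± 0.16), Mcm6 (0.72 ± 0.18) and Cdc6 (0.81 ± 0.28) differed in the same direction as Birc5. Without the ileal library apart, 22 members differed (38.9% of all genes did), 5 of them more positively in Villin-Cre mice, and with a pseudocount of 2 only 10 did, 6 of them more positively.

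**Figure D3:**
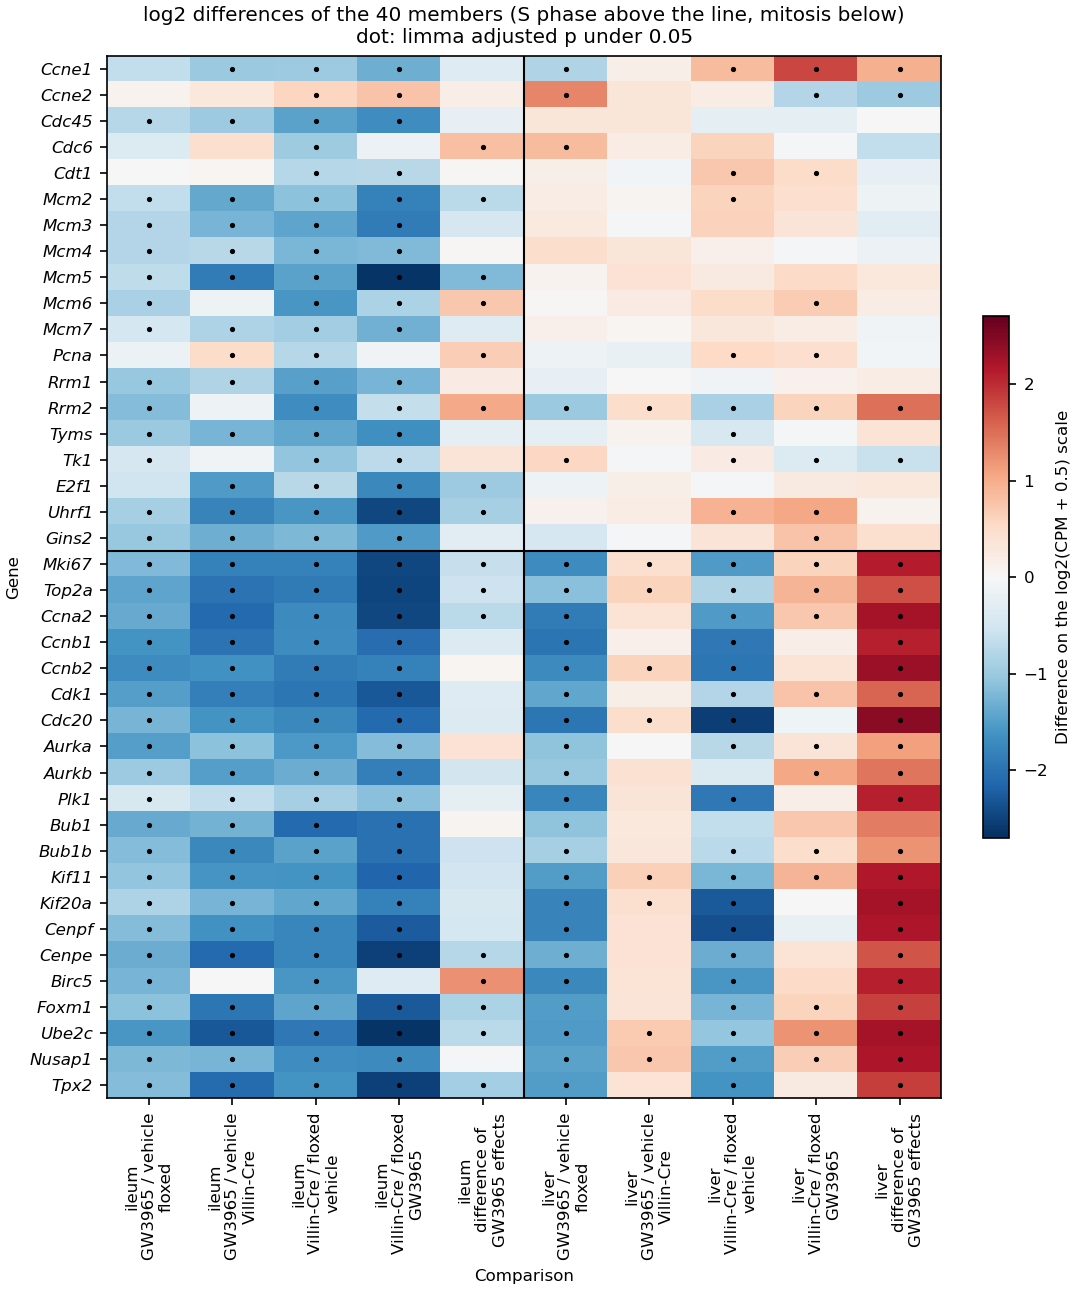
Log2 difference of each of the 40 members in the comparisons of each tissue, the difference of the GW3965 effects among them. S phase and mitosis members are set apart, and dots mark an adjusted p under 0.05 (limma). The 21 ileal mitosis members were highest in all libraries of floxed mice given vehicle (17.8% of all ileal genes tested were), and 18 of 21 liver mitosis members were highest in that group without overlap.

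Outside the 40 members, 31 to 36 of 37 other mitosis genes and 18 to 28 of 34 other replication genes fell in the ileal comparisons. Of 37 other mitosis genes, 31 fell with GW3965 in floxed mice, 32 fell and 1 rose with GW3965 in Villin-Cre mice, 36 fell with Villin-Cre under vehicle, and 34 fell and 1 rose with Villin-Cre under GW3965. Cdca3, a factor for mitotic entry, stood at -1.54 ± 0.17 with GW3965 in floxed mice, and Cit, the citron kinase of cytokinesis, at -1.74 ± 0.11 with GW3965 in Villin-Cre mice. Kif15, a spindle kinesin, stood at -1.82 ± 0.16 with Villin-Cre under vehicle. Of 34 other replication genes, 18, 19, 27 and 28 fell in those 4 comparisons, and 1 rose with GW3965 in Villin-Cre mice and 1 with Villin-Cre under GW3965. Beside both lists, 20.9%, 31.1%, 30.7% and 38.3% of all genes fell. Pole, the leading-strand polymerase, changed by -2.48 ± 0.18 with Villin-Cre under GW3965.

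Of the regulators of the start of the cycle, between 7 and 10 of 10 G1 cyclins and kinases fell. With GW3965, 7 fell and 1 rose in floxed mice and all 10 fell in Villin-Cre mice, and 7 and 9 fell with Villin-Cre under vehicle and under GW3965. The shares of all genes that fell were 20.9%, 31.1%, 30.7% and 38.3% in that order. Ccnd1, cyclin D1, stood at 215 ± 1.42, 46.8 ± 12.4, 72.4 ± 0.469 and 9.74 ± 0.731 CPM in floxed vehicle, floxed GW3965, Villin-Cre vehicle and Villin-Cre GW3965 mice, and fell in all 4 comparisons. Myc, the growth transcription factor, stood at 25.8 ± 1.30, 18.4 ± 3.70, 8.34 ± 0.0701 and 3.32 ± 0.426 CPM. The 17 CDK inhibitors and other brakes went both ways: 7 rose and 5 fell with GW3965 in floxed mice, 8 rose and 5 fell with GW3965 in Villin-Cre mice, and 5 rose and 5 fell with Villin-Cre under either treatment. The shares of all genes that rose were 14.7%, 21.5%, 9.61% and 13.6% in the order of comparisons above. Cdkn1a, the inhibitor p21, stood at 182 ± 5.31, 189 ± 12.0 and 186 ± 2.24 CPM in the first 3 groups and 308 ± 4.14 CPM in Villin-Cre mice given GW3965. Btg2, an antiproliferative gene, rose with GW3965 by 1.05 ± 0.08 and 1.11 ± 0.08 on the log2 scale in the 2 genotypes. E2f8, an E2F that represses S phase genes late in the cycle, fell by 2.08 on the log2 scale with Villin-Cre under vehicle.

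Marker sums of the cell types in the ileum also differed between the groups. Only the crypt stem cell means had the members' order of groups. The summed level of 10 crypt stem cell markers, among them Lgr5 and Olfm4, was 448, 389, 305 and 229.8 CPM in floxed vehicle, floxed GW3965, Villin-Cre vehicle and Villin-Cre GW3965 mice. In those groups 12 markers of absorptive enterocytes summed to 11612, 20194, 15504 and 31799.9 CPM, and 8 markers of all epithelium to 8153, 8471, 8342 and 9779.7 CPM. The members' sum divided by the epithelial sum was 0.129, 0.0629, 0.0444 and 0.0186 in that order, so the order of the groups was the same relative to epithelium. Of the crypt stem cell markers, 5, 7, 6 and 7 of 10 fell in the 4 comparisons taken as above, and 1 rose with GW3965 in either genotype. Beside them, 20.9%, 31.1%, 30.7% and 38.3% of all genes fell. All 6 smooth muscle markers fell with GW3965 in both genotypes, with sums of 5982, 2671, 6388 and 804 CPM in the order of groups above. The B cell markers summed to 157, 152 and 7.45 CPM in the 3 libraries of floxed mice given GW3965, the low one being the library apart, and to 11.4 to 13.1 CPM in floxed mice given vehicle. The macrophage sums were 227, 102, 169 and 114 CPM and the T cell sums 40.5, 54.9, 67.1 and 28.3 CPM. Germinal centre B cells, which divide fast, had marker sums of 34.4, 39.6, 38.1 and 30.0 CPM, with 1 of 7 markers at 0 in both Villin-Cre groups. Erythroid markers summed to 7.71, 6.73, 4.21 and 4.24 CPM, with 1 of 6 at 0 in every group. Of the macrophage markers, 1 of 8 was at 0 in floxed GW3965 and in Villin-Cre vehicle mice. The predicted gene Gm26917 took a share of the reads that also differed between groups. Its share was 10.4 to 11.6% in floxed vehicle, 6.57 to 7.92% in floxed GW3965, 11.5 to 12.2% in Villin-Cre vehicle and 3.92 to 4.204% in Villin-Cre GW3965 libraries. The part of cell mixture and of this gene's share in the members' changes was not tested.

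In the liver the phases parted. Mitosis genes were highest in floxed mice given vehicle and lower in the 3 other groups, while S phase genes were not. The mitosis members summed to 275 ± 3.31 CPM in floxed mice given vehicle, 85.4 ± 8.83 CPM in floxed mice given GW3965, 91.0 ± 4.10 CPM in Villin-Cre vehicle mice and 126 ± 3.30 CPM in Villin-Cre GW3965 mice. The S phase members summed to 195 ± 3.97, 221 ± 67.1, 243 ± 7.95 and 260.0 ± 7.05 CPM in that order, with 144, 258 and 263 CPM in the libraries of floxed mice given GW3965, the first being the library apart. The mitosis sum was 1.41 times the S phase sum in floxed mice given vehicle and 0.406, 0.374 and 0.484 times in the other groups. Floxed mice given vehicle were highest without overlap in 18 of 21 mitosis members and in 2 of 19 S phase members, beside 3.08% of all genes tested in the liver.

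Mki67 was the most abundant member in the liver as well. Mki67 stood at 64.9, 61.7 and 63.9 CPM under vehicle and at 16.3, 21.01 and 21.1 CPM under GW3965 in floxed mice. With Villin-Cre, Mki67 stood at 21.6, 22.4 and 21.3 CPM under vehicle and at 31.2, 29.5 and 28.2 CPM under GW3965. All floxed vehicle libraries lay above the other 9, and those of Villin-Cre mice given GW3965 came next. Cdc20, the activator of the anaphase-promoting complex, showed a wider gap. Cdc20 stood at 26.97, 25.2 and 25.9 CPM under vehicle and at 6.50, 6.28 and 6.18 CPM under GW3965 in floxed mice. With Villin-Cre, Cdc20 stood at 4.20, 4.31 and 3.64 CPM under vehicle and at 6.01, 6.10 and 5.29 CPM under GW3965. The Villin-Cre vehicle group was the lowest, and the groups given GW3965 lay between without overlapping each other. For Top2a the gap was smaller. Top2a stood at 16.4, 19.1 and 18.005 CPM under vehicle and at 5.86, 9.12 and 8.90 CPM under GW3965 in floxed mice. With Villin-Cre, Top2a stood at 9.58, 11.1 and 9.10 CPM under vehicle and at 14.1, 15.7 and 16.1 CPM under GW3965. The floxed vehicle and Villin-Cre GW3965 groups stayed apart by a narrow margin, and the library apart was the lowest of all.

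The S phase members with the highest mean CPM in the liver were Mcm7, Mcm6 and Pcna. Mcm7 stood at 21.5, 18.7 and 22.1 CPM under vehicle and at 17.6, 25.7 and 26.8 CPM under GW3965 in floxed mice. With Villin-Cre, Mcm7 stood at 26.8, 25.0 and 25.2 CPM under vehicle and at 27.6, 27.1 and 25.0 CPM under GW3965. Both Villin-Cre groups lay above floxed vehicle, and the floxed GW3965 libraries lay on both sides of it. Mcm6 stood at 18.7, 18.1 and 18.1 CPM under vehicle and at 9.37, 27.1 and 25.1 CPM under GW3965 in floxed mice. With Villin-Cre, Mcm6 stood at 25.5, 25.1 and 26.9 CPM under vehicle and at 31.6, 28.5 and 31.0 CPM under GW3965. Both Villin-Cre groups lay above floxed vehicle, and the floxed GW3965 libraries fell on both sides of it. Pcna stood at 18.4, 19.5 and 19.6 CPM under vehicle and at 12.6, 20.2 and 20.9998 CPM under GW3965 in floxed mice. With Villin-Cre, Pcna stood at 29.2, 29.5 and 25.1 CPM under vehicle and at 23.2, 23.0 and 26.7 CPM under GW3965. Every Villin-Cre library was above every floxed library for Pcna, whose level per kilobase of exon was the highest in the liver, at 9.30 CPM per kb over 12 libraries, against 5.65 for Cdc20 and 3.34 for Mki67.

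With GW3965 every mitosis member fell in the liver of floxed mice. All 21 fell, with a median log2 change of -1.51, while of the 19 S phase members 2 fell and 3 rose, with a median of 0.11. Over all genes 30.1% changed (19.7% fell and 10.4% rose), with a median of -0.04, and higher genes were 34.5% of calls, or 44.8% after rescaling. Ccnb1 (-1.96 ± 0.17) and Cdc20 (-1.96 ± 0.10) changed most, followed by Ccna2 (-1.88 ± 0.13), Kif20a, a kinesin of cytokinesis (-1.81 ± 0.11), and Cenpf, a kinetochore protein (-1.81 ± 0.12). Mki67 changed by -1.69 ± 0.09 (adjusted p = 1.3e-08) and Top2a by -1.14 ± 0.14 (adjusted p = 3.7e-05). The smallest changes were those of the checkpoint kinase genes Bub1b (-0.90 ± 0.15) and of Aurkb, the kinase of the chromosome passengers (-1.03 ± 0.20).

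Rrm2 (-1.0004 ± 0.14, adjusted p = 1.3e-04) and Ccne1 (-0.81 ± 0.15, adjusted p = 0.0011) were the S phase members that fell. Ccne2 rose instead. Ccne2 stood at 3.55, 4.46 and 4.12 CPM under vehicle and at 14.8, 8.84 and 9.69 CPM under GW3965 in floxed mice. With Villin-Cre, Ccne2 stood at 4.34, 5.00 and 4.75 CPM under vehicle and at 5.35, 5.17 and 7.91 CPM under GW3965. All floxed GW3965 libraries lay above the other 9, with the library apart the highest, and the log2 change was 1.32 ± 0.19 (adjusted p = 1.2e-04). Ints8, which shares exon bases with Ccne2 on the other strand, stood at 22.3 and 24.8 CPM in these 2 groups. Tk1 rose by 0.56 ± 0.09 (adjusted p = 2.8e-04) on the log2 scale. Tk1 stood at 14.6, 15.2 and 12.8 CPM under vehicle and at 19.2, 21.04 and 23.4 CPM under GW3965 in floxed mice. With Villin-Cre, Tk1 stood at 16.2, 16.7 and 16.8 CPM under vehicle and at 17.3, 15.8 and 15.6 CPM under GW3965. The floxed GW3965 libraries were above all others. Afmid, which shares 1.60% of the exon bases of Tk1 on the other strand, stood at 16.2 CPM with vehicle and 31.5 CPM with GW3965 in floxed mice. Its part in the value of Tk1 was not tested. Cdc6, which loads the helicase at origins, was low, and it rose by 0.86 ± 0.26 (adjusted p = 0.024) on the log2 scale. Cdc6 stood at 1.19, 0.689 and 0.783 CPM under vehicle and at 1.06, 2.73 and 2.58 CPM under GW3965 in floxed mice. With Villin-Cre, Cdc6 stood at 1.78, 1.84 and 1.21 CPM under vehicle and at 1.66, 1.70 and 2.41 CPM under GW3965. Its floxed groups overlapped through the library apart.

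The S phase result in this comparison turned on 1 library. Without the liver library apart, 12 S phase members rose and 2 fell (15.6% and 23.3% of all genes did), with a median of 0.50, while all 21 mitosis members still fell (median -1.45). Mcm6 was then at 0.50 (adjusted p = 8.3e-07) and Mcm2 at 0.60 (adjusted p = 2.6e-07), against 0.02 ± 0.26 and 0.21 ± 0.22 with all libraries.

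In the liver of Villin-Cre mice GW3965 changed few members, all of them upward. Of the mitosis members 8 rose, with a median of 0.38 over all 21, and of the S phase members 1 rose, with a median of 0.15 over all 19. Over all genes 11.9% changed (2.85% rose and 9.03% fell), with a median of -0.08, and higher genes were 23.98% of calls, or 59.9% after rescaling. The mitosis members that rose were Mki67 (0.44 ± 0.09, adjusted p = 0.0053), Top2a (0.60 ± 0.14, adjusted p = 0.014), Ube2c (0.71 ± 0.16), Nusap1, a spindle protein (0.73 ± 0.19), Kif11, the spindle motor Eg5 (0.64 ± 0.13), Ccnb2 (0.60 ± 0.16), Cdc20 (0.47 ± 0.10) and Kif20a (0.44 ± 0.11). Rrm2 was the S phase member that rose (0.48 ± 0.14, adjusted p = 0.043). Leaving out single libraries moved the 9 calls to between 4 and 17: 4 without Villin-Cre vehicle replicate 1 or Villin-Cre GW3965 replicate 2, 5 without Villin-Cre vehicle replicate 3 or Villin-Cre GW3965 replicate 3, and 17 without the library apart, which was not in the groups compared and entered only through the shared estimate of spread.

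Under vehicle, mitosis genes were lower in the liver of Villin-Cre mice than of floxed mice. The liver is not an intended site of Villin-Cre. Of the mitosis members 19 fell (median -1.51), while 6 S phase members rose and 2 fell (median 0.30). Over all genes 56.8% changed (45.1% rose and 11.7% fell), with a median of 0.26. Rescaling by the median of gene ratios moved that median by -0.25 and the higher share of calls from 79.3 to 49.3%. After rescaling 20 mitosis members were lower, and 1 S phase member was higher and 2 were lower, so the S phase rise depended on the scaling. Of all genes 21.6% were higher and 22.2% lower after rescaling. Cdc20 (-2.55 ± 0.10, adjusted p = 9.1e-11), Cenpf (-2.38 ± 0.12) and Kif20a (-2.27 ± 0.11) changed most, and Mki67 changed by -1.52 ± 0.09 (adjusted p = 3.4e-09). Aurkb (-0.38 ± 0.20, adjusted p = 0.12) and Bub1 (-0.66 ± 0.34, adjusted p = 0.12) did not pass. Rrm2 (-0.88 ± 0.14) and Tyms (-0.43 ± 0.12) were the S phase members that fell.

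The S phase members that rose under vehicle were Ccne1, Cdt1, Pcna, Mcm2, Uhrf1 and Tk1. Ccne1 stood at 2.39, 1.87 and 2.86 CPM under vehicle and at 1.13, 1.03 and 1.22 CPM under GW3965 in floxed mice. With Villin-Cre, Ccne1 stood at 5.31, 4.35 and 4.32 CPM under vehicle and at 5.24, 5.17 and 5.18 CPM under GW3965. Both Villin-Cre groups lay above both floxed groups for Ccne1, and the log2 change under vehicle was 0.85 ± 0.15 (adjusted p = 2.5e-04). Cdt1 is the licensing factor that recruits the Mcm ring with Cdc6. Cdt1 stood at 7.71, 11.4 and 10.2 CPM under vehicle and at 7.29, 13.4 and 13.0 CPM under GW3965 in floxed mice. With Villin-Cre, Cdt1 stood at 15.1, 16.01 and 17.6 CPM under vehicle and at 15.6, 16.6 and 14.2 CPM under GW3965. Every Villin-Cre library was above every floxed library, with a log2 change of 0.72 ± 0.19 (adjusted p = 0.0048). Mcm2 stood at 15.1, 14.8 and 16.5 CPM under vehicle and at 10.3, 24.4 and 22.8 CPM under GW3965 in floxed mice. With Villin-Cre, Mcm2 stood at 22.8, 25.1 and 23.5 CPM under vehicle and at 23.8, 27.04 and 23.96 CPM under GW3965. The Mcm2 libraries of Villin-Cre mice given vehicle lay above those of floxed mice given vehicle, with a log2 change of 0.61 ± 0.22 (adjusted p = 0.03). Pcna changed by 0.53 ± 0.15 (adjusted p = 0.007) and Uhrf1 by 0.95 ± 0.38 (adjusted p = 0.047), and Tk1 by 0.22 ± 0.09 (adjusted p = 0.046), the last at -0.055 after rescaling. Without the library apart, which these groups do not hold, 11 S phase members rose, 2 fell and 20 mitosis members fell, beside 50.1% of all genes that rose and 13.9% that fell.

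Under GW3965, Villin-Cre mice had 11 of 21 liver mitosis members higher than floxed mice (median 0.52), and 7 S phase members higher and 2 lower (median 0.35). Over all genes 55.9% changed (40.9% rose and 15% fell), with a median of 0.21. After rescaling, which moved the median of all genes by -0.21 and the higher share of calls from 73.1 to 51.3%, 8 mitosis members were higher and 2 lower, and 2 S phase members were higher and 2 lower. Of all genes 26.1% were then higher and 24.8% lower. Ube2c (1.21 ± 0.16), Aurkb (1.05 ± 0.20), Top2a (0.92 ± 0.14, adjusted p = 6.0e-05) and Kif11 (0.91 ± 0.13) had the largest mitosis changes, and Mki67 changed by 0.60 ± 0.09 (adjusted p = 3.1e-05). Cdc20 (-0.12 ± 0.10), Kif20a (-0.02 ± 0.11) and Cenpf (-0.19 ± 0.12) did not pass. Ccne1 had the largest S phase change, at 1.81 ± 0.15 (adjusted p = 1.4e-07). Ccne2 (-0.79 ± 0.19, adjusted p = 0.0023) and Tk1 (-0.37 ± 0.09, adjusted p = 0.0025) were lower in Villin-Cre mice. Before rescaling both shares of higher members were not far from that of all genes. Without the library apart, 10 mitosis members were higher, and 5 S phase members were higher and 4 lower, beside 42.1% of all genes that were higher and 17.2% that were lower. A fit of only these groups called 13 members, 11 higher and 2 lower.

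The median effect of GW3965 on the mitosis members of the liver was below 0 in floxed and above 0 in Villin-Cre mice, and the difference itself was tested. It was positive, that is higher in Villin-Cre than in floxed mice, for 20 of 21 mitosis members, with a median of 2.10. Over all genes 19.9% differed, 10.2% in that direction and 9.7% in the other, with a median of -0.04. Of all calls 51.2% were positive, or 61.2% after rescaling. Cdc20 differed by 2.43 ± 0.14 (adjusted p = 7.7e-08), Ccnb2 by 2.32 ± 0.23, Mki67 by 2.13 ± 0.12 (adjusted p = 7.7e-08) and Top2a by 1.74 ± 0.20 (adjusted p = 4.3e-05). Bub1, the least abundant mitosis member (0.474 to 1.52 CPM in the group means), did not pass (1.38 ± 0.48, adjusted p = 0.06). Of the S phase members, Rrm2 (1.48 ± 0.20, adjusted p = 1.8e-04) and Ccne1 (0.95 ± 0.21, adjusted p = 0.0065) differed in the same direction and Ccne2 (-0.99 ± 0.27, adjusted p = 0.018) and Tk1 (-0.59 ± 0.13, adjusted p = 0.0046) in the other. Without the library apart all 21 mitosis members differed, and 10 S phase members had a lower and 2 a higher effect in Villin-Cre mice, beside 17.5% and 15.1% of all genes. Mcm6 was then at -0.27 (adjusted p = 0.03), against 0.20 ± 0.37 (adjusted p = 0.76) with all libraries.

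Other mitosis genes of the liver were counted in the same comparisons. Of 37, 32 fell with GW3965 in floxed mice, 8 rose with GW3965 in Villin-Cre mice, 27 fell with Villin-Cre under vehicle, and 20 rose and 1 fell with Villin-Cre under GW3965. The effect of GW3965 was more positive in Villin-Cre mice for 31 of them, beside 10.2% of all genes. Ect2, a RhoGEF of cytokinesis, stood at 19.1 ± 0.80003, 4.75 ± 0.567, 4.26 ± 0.562 and 7.48 ± 1.11 CPM in floxed vehicle, floxed GW3965, Villin-Cre vehicle and Villin-Cre GW3965 mice. Of 34 other replication genes, 5 rose and 1 fell with GW3965 in floxed mice, 1 rose with GW3965 in Villin-Cre mice, 7 rose and 2 fell with Villin-Cre under vehicle, and 5 rose and 4 fell with Villin-Cre under GW3965. Beside both lists, 10.4%, 2.85%, 45.1% and 40.9% of all genes rose in those comparisons, and 19.7%, 9.03%, 11.7% and 15% fell. For 1 of the 34 other replication genes the effect of GW3965 was more positive in Villin-Cre mice and for 2 more negative, beside 10.2% and 9.7% of all genes. Mcm10, which helps to start the helicase, changed by 0.63 ± 0.08 with GW3965 in floxed mice and by -1.13 ± 0.08 and -1.65 ± 0.08 with Villin-Cre under vehicle and GW3965.

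With Villin-Cre under vehicle the G1 genes of the liver did not follow the mitosis genes. Of 10, 6 fell and 1 rose with GW3965 in floxed mice, 1 rose and 1 fell with GW3965 in Villin-Cre mice, and 8 were higher in Villin-Cre mice under either treatment. The effect of GW3965 was more positive in Villin-Cre mice for 5 and more negative for 0, beside 10.2% and 9.7% of all genes. The shares of all genes were 19.7% lower and 10.4% higher with GW3965 in floxed mice, and 9.03% lower and 2.85% higher with GW3965 in Villin-Cre mice. With Villin-Cre 45.1% of all genes were higher under vehicle and 40.9% under GW3965, and 11.7% and 15% were lower. Ccnd1 stood at 321 ± 4.44 and 152 ± 6.01 CPM in floxed mice with vehicle and GW3965, and at 311 ± 4.34 and 383 ± 6.32 CPM in Villin-Cre mice. Myc stood at 23.1 ± 0.366 and 12.1 ± 0.148 CPM in floxed and 82.7 ± 2.69 and 71.7 ± 3.33 CPM in Villin-Cre mice. With Villin-Cre under vehicle, Myc rose by 1.82 ± 0.05 (adjusted p = 9.0e-12) on the log2 scale. Of the 17 brakes, 1 rose and 5 fell with GW3965 in floxed mice, 3 fell with GW3965 in Villin-Cre mice, and 9 were higher and 3 lower in Villin-Cre mice under either treatment. Beside the shares of all genes given above, the share of brakes higher with Villin-Cre was not far from the background. Cdkn1a stood at 48.0 ± 2.36 and 22.6 ± 1.43 CPM in floxed and 128 ± 3.23 and 112 ± 1.90 CPM in Villin-Cre mice.

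Cell type markers of the liver moved between the groups as well. The 10 hepatocyte markers, Alb among them, summed to 93527, 75807, 63257 and 70404 CPM in floxed vehicle, floxed GW3965, Villin-Cre vehicle and Villin-Cre GW3965 mice, and to 4803 to 20004 CPM in the ileal groups. In that order macrophage markers summed to 596, 545, 1137 and 805 CPM, bile duct markers to 122, 57.9, 280.1 and 144 CPM and epithelial keratins and their companions to 776, 552, 3064 and 2402 CPM. Of the 8 epithelial markers 1 was at 0 in floxed mice given GW3965. Germinal centre B cell markers summed to 48.7, 103 and 106 CPM in the libraries of floxed mice given GW3965, the first being the library apart, and to 46.3 to 50.1 CPM in floxed mice given vehicle. Only 4 of these 7 markers were tested, and with GW3965 in floxed mice 1 rose and 2 fell (median log2 change -0.30). Enterocyte markers summed to 1578, 537 and 531 CPM in the same floxed GW3965 libraries, and erythroid markers to 41.2, 51.8, 38.0 and 34.1 CPM in the 4 groups. Of the 12 enterocyte markers, 3 were at 0 in floxed mice given GW3965, and only 6 were tested in the liver. All 8 macrophage markers rose with Villin-Cre under vehicle, beside 45.1% of all genes. The predicted gene Gm26917 took 2.80 to 2.88% of the reads in floxed vehicle, 5.55, 3.61 and 3.72% in floxed GW3965 (the library apart first), 4.12 to 4.26% in Villin-Cre vehicle and 3.48 to 4.004% in Villin-Cre GW3965 libraries. The part of cell mixture in the members' changes was not tested.

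Set side by side, most members were higher in the ileum in floxed mice given vehicle and higher in the liver in Villin-Cre mice given GW3965. These ratios are a description, with no test across the tissues' tables. In floxed mice given vehicle, 38 of 40 members had a higher mean CPM in the ileum, beside 57.8% of 16322 genes tested in both tissues, with a median ratio of ileum to liver of 1.81 over S phase and 2.63 over mitosis members. With GW3965 in floxed mice the medians were 1.11 and 3.32, and 11 of 19 S phase and 21 of 21 mitosis members were higher in the ileum. In Villin-Cre mice given vehicle they were 0.637 and 2.32: 4 of 19 S phase but 18 of 21 mitosis members were higher in the ileum. For floxed GW3965 and Villin-Cre vehicle mice the share over all genes was not computed, so these counts have no background beside them. In Villin-Cre mice given GW3965 the median ratios were 0.298 and 0.389. There 35 of 40 members had all 3 liver libraries above all 3 ileal libraries, beside 52.7% of those 16322 genes.

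The members that stayed higher in the ileum in Villin-Cre mice given GW3965 were Plk1, Ccne2, Birc5 and Cdc6. Plk1 was 3.64 times and Ccne2 3.50 times its liver mean. At the other end, Cdk1, the kinase of mitotic entry, was at 0.0978 of its liver mean, with 0.488 ± 0.165 CPM in the ileum and 4.99 ± 0.756 CPM in the liver. Top2a ran from 6.44 times in floxed mice given vehicle to 0.469 of its liver mean in Villin-Cre mice given GW3965. Kif20a and Cdc20 were the members higher in the liver in floxed mice given vehicle, at 0.522 and 0.7995 of their liver means. Kif20a shares 29.3% of its exon bases with Cdc23 on the other strand, and Gins2 shares 67.3% with Gse1. In all, 13 of the 40 members share exon bases with another annotated gene. The sources used here do not give the strand setting of the counting, so reads of such pairs may have been mixed.

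**Figure D4:**
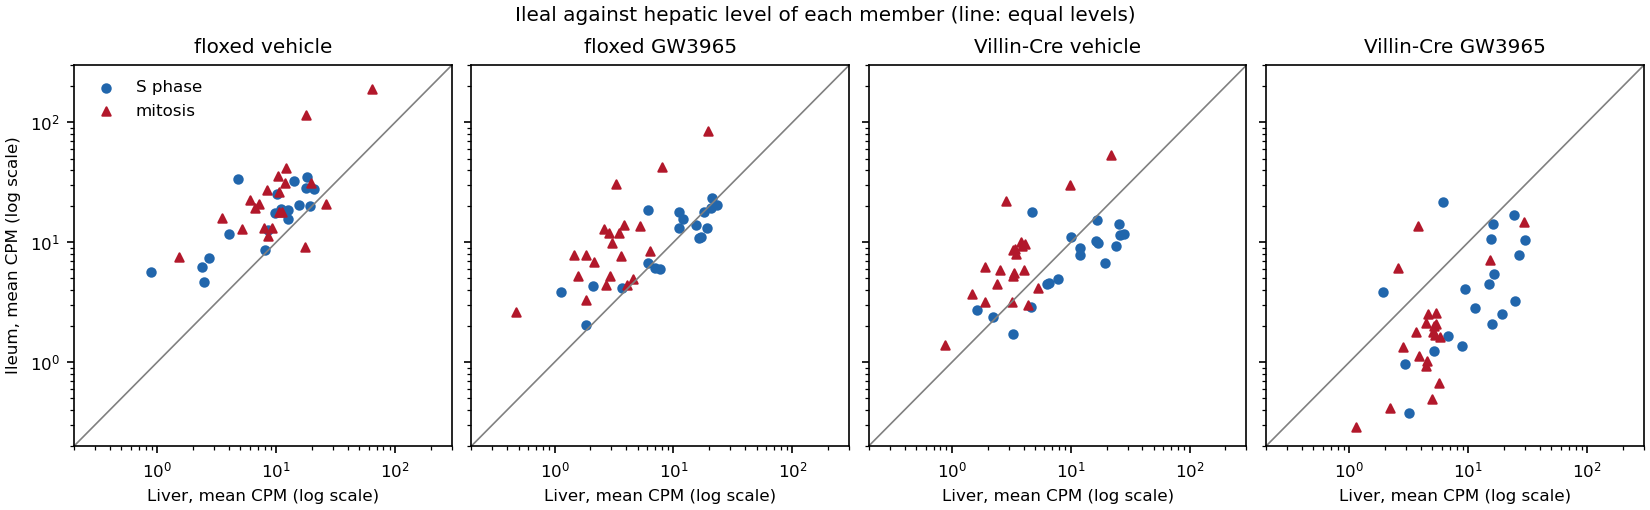
Mean level of each member in the ileum (y axis, CPM) against the liver (x axis, CPM), both on log scales, for each group, with the line of equal levels. The cloud lies above the line in floxed mice given vehicle (38 of 40 members) and below it in Villin-Cre mice given GW3965 (36 of 40 members), and in Villin-Cre mice given vehicle the S phase members lie mostly below and the mitosis members mostly above.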

How the data were processed

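Whole ileum and whole liver gave 24 RNA-seq libraries (2 tissues, 4 groups, 3 libraries each) from rRNA-depleted RNA primed with random hexamers and read as pairs of 150 bases, per the labels. Reads were converted with bcl2fastq, aligned to GRCm38 with STAR 2.5.1a and counted with featureCounts 1.4.6-p5 of Subread, per the submitters' processing notes. For the annotation release, the strand setting and the formula of the log values nothing is stated in the labels. Log2 counts per 1000000 reads were deposited by the authors in 1 table per tissue. The tissues may have been scaled separately, so no test crosses them.

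Of 40757 entries per table, 276 exact repeats were dropped, which left 40481 genes. The lowest log2 value in a library stands for 0 reads. Whole reads were recovered from the steps between low values (tolerance 0.05), and even read numbers were more frequent than odd ones, as when both mates of a pair are counted. CPM was computed from these reads. Genes with at least 0.5 CPM in at least 3 libraries of a tissue were kept. In the main test log2(CPM + 0.5) was fitted with limma 3.58.1 (R 4.3.3), with all 4 groups of a tissue in 1 fit without a replicate block, Benjamini-Hochberg adjustment over all genes kept, and an adjusted p under 0.05 as the threshold. The planned design allowed for a count test, and limma was used because the values were on a log scale. The fit was tested on simulated data. The alternatives were averaged close libraries, a pseudocount of 2, no filter, rescaling by the median of gene ratios, the deposited log2 values, voom on the recovered reads, a fit of only the groups compared, a replicate block and leaving out each library.

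The members and lists were chosen with earlier results of these data known. Full values were given for Mki67, Top2a, the 3 most abundant members of each phase per tissue, members called against the direction of most others, Cdkn1a, Ccnd1 and Myc, and for up to 3 genes per other list and comparison by smallest p. Further members were named after their values were seen, to account for every member. Gene positions, exon lengths and overlaps came from GENCODE M21, and promoters from RefSeq (GRCm38.p6). Some genes that the naming rule picks are not reported here.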

Additional observations from a re-analysis of the deposited data

Results flagged for a closer look

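The effect of GW3965 differed between the genotypes by the test of the difference itself (limma, adjusted p under 0.05, 3 libraries per group) in both tissues. In the ileum the log2 effect was more negative in Villin-Cre mice for 7 mitosis and 4 S phase members, and more positive for 1 mitosis and 4 S phase members. Over all ileal genes tested, 18.4% had a more negative and 14.6% a more positive effect, so the members' share was not far from the background. Ileal Mki67 differed by -0.62, Top2a by -0.57 and Mcm6 by 0.72 on the log2 scale. In the liver the effect was more positive in Villin-Cre mice for 20 mitosis and 2 S phase members and more negative for 2 S phase members. Over all liver genes tested, 10.2% had a more positive and 9.7% a more negative effect. Liver Cdc20 differed by 2.43, Mki67 by 2.13 and Top2a by 1.74 on the log2 scale.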

How the results depend on the processing

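The number of members called rested most on treating libraries of a group as separate samples. With close libraries averaged, limma called 1, 14, 0 and 23 ileal members (GW3965 in floxed and in Villin-Cre mice, Villin-Cre under vehicle and under GW3965, in this order throughout) and 0 for the difference of the GW3965 effects, with 28, 28, 36, 35 and 1 at an unadjusted p under 0.05. In the liver it called 0, 0, 3, 1 and 0, with 24, 0, 15, 8 and 20 at an unadjusted p under 0.05. That setting leaves fewer samples by construction, and its counts are given without the share of all genes. The counts with all libraries were 34, 33, 40, 37 and 16 in the ileum and 26, 9, 27, 20 and 24 in the liver. Leaving out each library gave 33 to 36, 33 to 34, 38 to 40, 37 to 38 and 13 to 22 in the ileum, and 24 to 35, 4 to 17, 24 to 33, 15 to 24 and 23 to 33 in the liver. A pseudocount of 2 gave 10 for the ileal difference, and a fit of only the groups compared gave 13 for Villin-Cre under GW3965 in the liver. The cause was not tested. Liver Tk1 with Villin-Cre under vehicle went from 0.22 to -0.055 after rescaling, and the liver difference for Mcm6 from 0.20 to -0.27 without floxed GW3965 replicate 1, the lowest value when single libraries were left out (highest 0.47). The other alternatives kept each total of called members, over both phases and directions, within 1.5 times. Rescaling took the S phase members that were higher in the liver with Villin-Cre from 6 to 1 under vehicle and from 7 to 2 under GW3965. The shares of all genes that were higher went from 45.1% to 21.6% and from 40.9% to 26.1%. Of the results on single members, 392 kept direction and side of the threshold with voom on recovered reads, 394 with the deposited log2 values and 382 with no filter. Same-numbered libraries did not deviate together (median correlation of deviations 0.007 in the ileum and 0.001 in the liver), so the numbers were not taken as pairs. The replicate block left 395 results the same, and moved Rrm2 (GW3965 in Villin-Cre mice, adjusted p = 0.060), Tk1 (Villin-Cre under vehicle, 0.065) and Aurka (Villin-Cre under GW3965, 0.066) of the liver past the threshold of limma, with liver Bub1 moved the other way under GW3965 (0.044) and for the difference (0.030). Low members, such as Bub1 and Cdc6 in the liver, rest on few reads, and whether depth limited their calls was not tested.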
